A study of Xenopus laevis with 4 samples.

Results

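Mitochondrial ribosomal protein genes were followed in RNA from vegetal cortices and from whole oocytes of the frog Xenopus laevis. The members are the array probe sets whose single gene symbol begins with mrpl (large subunit) or mrps (small subunit) and a digit. This rule found 41 of 15491 non-control probe sets, standing for 38 gene symbols, with 25 probe sets for the large subunit and 16 for the small subunit. Without the endings .L and .S, which mark the homeologous copies of this allotetraploid genome on its long and short subgenomes, they are 36 genes, of 74 such genes named in the RefSeq gene table of the Xenopus_laevis_v10.1 assembly.

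Vegetal cortices were dissected by hand from collagenase-treated, full-grown stage VI oocytes, by cutting the cell across and pressing the yolky cytoplasm off the vegetal piece. Whole oocytes of the same stage, also collagenase-treated and from the same female, served as controls. Each group has 2 Affymetrix arrays, 1 for each of 2 donor females, and cortices were frozen in batches, so an array reads RNA of pooled cortices from 1 animal. The labels name no strain, no genetic change and no agent other than collagenase.

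The mitochondrial ribosome translates the few messages that mitochondria transcribe from their own genome, nearly all of which encode core subunits of the respiratory chain. Its ribosomal RNAs come from mitochondrial DNA, but its proteins are encoded in the nucleus, translated in the cytoplasm and imported. Some have counterparts in the bacterial ribosome and others are specific to mitochondria. The frog oocyte builds up a large stock of mitochondria before fertilisation, and part of that stock lies in the germ plasm of the vegetal cortex, which makes the place of these messages a question of its own.

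Array values are MAS5 signals, scaled to the same trimmed mean on every array, so each value is a share of its sample's RNA and not an amount per cell. Less RNA of a gene in the cortex and more RNA of other genes there cannot be told apart. The median signal over all non-control probe sets was 562 and 521 on the cortex arrays and 601 and 555 on the whole oocyte arrays. Log2 signals of the 9295 tested probe sets correlated at 0.84 between the cortex arrays and at 0.94 between the whole oocyte arrays, a description, since probe sets on an array are not replicates. All 14 probe sets for known vegetal cortex and germ plasm genes, such as nanos1.L and ddx25.L, had a log2 change above 0. Limma called 13 of them higher in the cortex at an adjusted p under 0.05, beside 3.31% of all tested probe sets. The list was chosen with earlier results of these data known, so the count is no independent check of the labels. Of 9 probe sets for oocyte genes, all tested, 3 had a log2 change below 0, beside 65.7% of all tested probe sets, and their median was 0.21. Of the 9, 6 had a log2 change above 0 and 1 was called higher, dazl.L (log2 change 2.95 ± 0.30 SE, limma adjusted p = 0.00256). This germ cell RNA-binding protein gene is also on the list of vegetal cortex and germ plasm genes, so it enters both counts. zp2.L, an egg envelope gene, had signals of 21318 and 11103 in cortices and of 5747 and 5238 in whole oocytes, and npm2.L, an oocyte histone chaperone gene, had 8605 and 9922 in cortices and 11686 and 9784 in whole oocytes. Of 14 probe sets for follicle and stromal cells, 3 reached the signal limit for testing, a mean signal of 271, and all 14 together summed to 31852 and 18388 in cortices and to 5640 and 7504 in whole oocytes. Most of that sum, and of its difference between the groups, came from 1 probe set of cyp17a1.L. It had 28863 and 16553 in cortices and 4187 and 5881 in whole oocytes, so the sum speaks for this gene and not for the list. Whether its RNA came from follicle cells or from the oocyte itself was not tested. vim.L, the other tested gene, had 479 and 569 in cortices and 491 and 520 in whole oocytes, while cyp19a1.L and fshr.L stayed under the limit. The other cyp17a1.L probe set had 1697 and 375 in cortices and 387 and 200 in whole oocytes, with overlap. Under the limit, both cortices lay above both oocytes for col1a2.L (83 and 71 against 24 and 15). The same held for the col1a1.S probe set ending in S1_at (137 and 143 against 102 and 61). In all others under the limit the groups overlapped. Of 7 probe sets for blood cells 0 reached the limit, and their sum was 399 and 359 in cortices and 425 and 278 in whole oocytes. The part of other cells in the values given here was not tested.

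No mitochondrial ribosomal protein gene passed the test in either direction, and nearly all had lower signals in the cortex. The signal limit was reached by 40 of the 41 probe sets, beside 60% of all non-control probe sets. Of these 40 tested probe sets, 0 were called lower and 0 higher by limma at an adjusted p under 0.05, beside 0% and 3.31% of all 9295 tested probe sets. A log2 change below 0 was found for 37 of the 40, beside 65.7% of all tested probe sets. The median log2 change was -0.33, beside -0.20 for all tested probe sets, so the members lay 0.12 below the general shift on the log2 scale. That gap was 0.23 without whole oocyte replicate 2 and 0.069 without vegetal cortex replicate 2, and it was 0.20 with the signal limit at the 60th percentile and 0.23 with no limit. At an unadjusted p under 0.05, 2 were lower and 0 higher, beside 4.62% and 8.02% of all tested probe sets.

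Both cortex arrays lay below both whole oocyte arrays for 22 of the 40 tested probe sets (55%), beside 31.8% of all tested probe sets, and above both for 0, beside 14.7%. With 2 arrays against 2, an exact permutation test of a single probe set cannot go below p = 0.333. In the remaining 18 the groups overlapped. The signal was lower in the cortex of both females for 28 probe sets, beside 47% of all tested probe sets, higher in both for 1 (20.8%), and opposite in the 2 females for 11. For 16 probe sets, all of them lower in the cortex, the log2 change was larger than the gap between replicates in either group, beside 21.6% of all tested probe sets that were lower by more than both gaps. The changes were small: 31 of 40 stayed within 1.5-fold, beside 67.2% of all tested probe sets. Leaving out 1 array moved the log2 change by over 1.5 times or turned its sign for 31 of the 40, with a change of sign in 15.

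**Figure D1:**
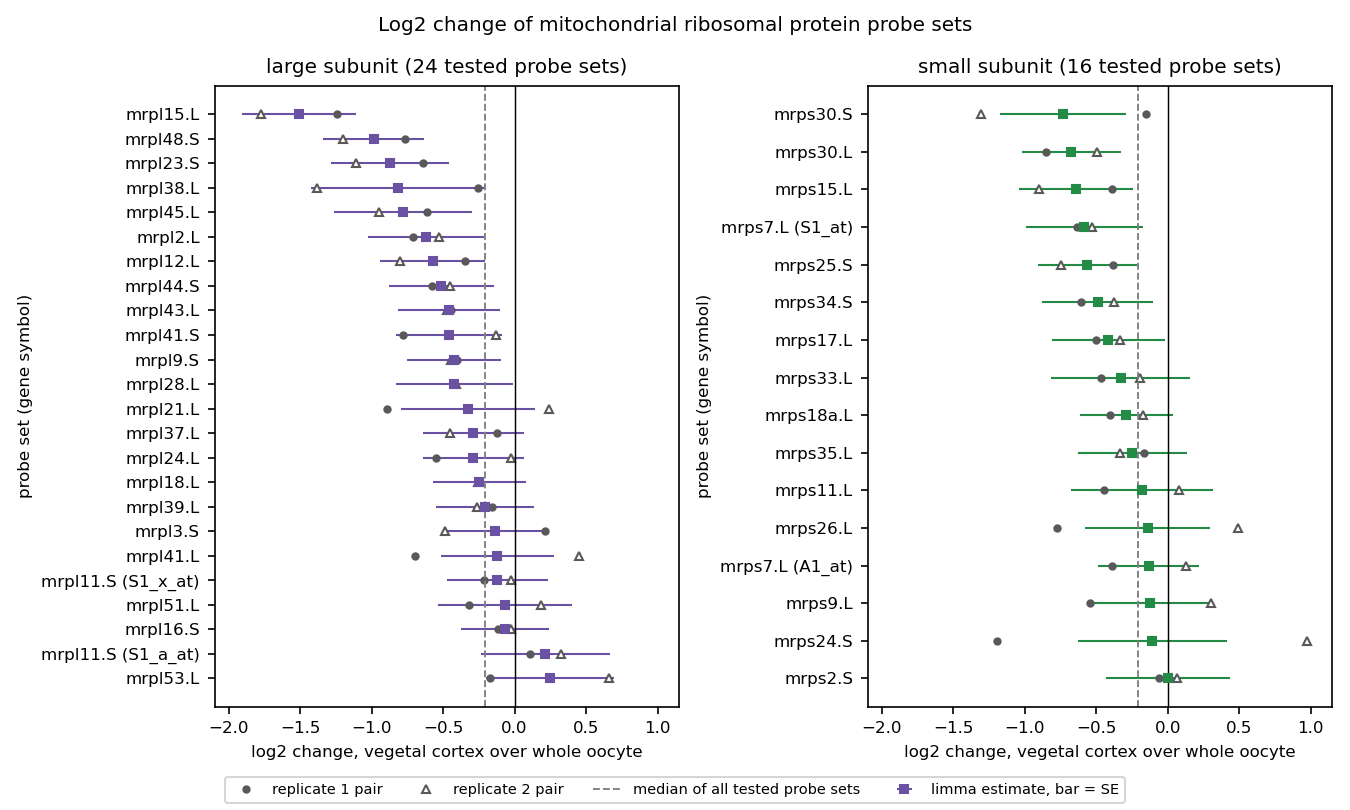
Log2 change of each tested probe set, vegetal cortex over whole oocyte (x axis), for the large subunit (left, 24 probe sets) and the small subunit (right, 16 probe sets). Squares are limma estimates with their SE, circles and triangles the change in each of the 2 females, and the dashed line is the median of all tested probe sets (-0.20). Estimates ran from -1.51 for mrpl15.L to 0.25 for mrpl53.L, and most lay below 0.

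The large subunit joins amino acids and holds the tunnel through which the new protein leaves. Its 24 tested probe sets had a median log2 change of -0.38, with 22 below 0, beside 65.7% of all tested probe sets, and both cortex arrays below both whole oocyte arrays in 14, or 58.3%, beside 31.8% of all tested probe sets. mrpl15.L, the counterpart of bacterial ribosomal protein L15, stood lowest, with signals of 1596 and 919 in cortices and of 3810 and 3188 in whole oocytes. Both cortices lay well under both oocytes, and the log2 change was -1.51 ± 0.40 SE, with -1.25 in the first female and -1.77 in the second. It was thus at 35.1% of the whole oocyte level and still missed the threshold (limma adjusted p = 0.112, unadjusted p = 0.00498). Its 95% interval ran from -2.42 to -0.60. mrpl15.L had a log2 change of -1.90 without vegetal cortex replicate 1 and of -1.12 without vegetal cortex replicate 2. Of all members it was the 1 that was lower by 2-fold or more, beside 3.77% of all tested probe sets.

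mrpl48.S and mrpl38.L encode mitochondria-specific proteins of the central protuberance, a part of the large subunit that touches the small one. mrpl48.S had signals of 1310 and 1096 in cortices and of 2248 and 2547 in whole oocytes. The groups were well apart, with replicates closer to each other than for mrpl15.L, and the log2 change was -0.99 ± 0.36 (limma adjusted p = 0.306, unadjusted p = 0.0235). mrpl38.L had 1770 and 472 in cortices and 2113 and 1261 in whole oocytes. Here the groups overlapped, and the log2 change of -0.82 ± 0.61 came mostly from the second female (-1.38, against -0.25 in the first). It was -1.75 without vegetal cortex replicate 1 and 0.12 without vegetal cortex replicate 2. mrpl18.L, the counterpart of a bacterial protein of the same region, had 3045 and 3153 in cortices and 3600 and 3763 in whole oocytes, a small difference with tight replicates (log2 change -0.25 ± 0.33).

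All 4 tested genes listed for the exit tunnel were lower in the cortex of both females. That held for 28 of the 40 tested members and for 47% of all tested probe sets. The 4 had a median log2 change of -0.65, and 0 passed. mrpl23.S, the counterpart of a bacterial protein at the tunnel exit, had signals of 1763 and 980 in cortices and of 2760 and 2133 in whole oocytes. The groups did not overlap, and the log2 change was -0.87 ± 0.41 (limma adjusted p = 0.432). The log2 change was -1.29 without vegetal cortex replicate 1 and -0.46 without vegetal cortex replicate 2. mrpl45.L, which in the human ribosome lies at the exit and ties the ribosome to the inner membrane, had 797 and 391 in cortices and 1229 and 771 in whole oocytes. Its lowest whole oocyte array reached into the range of the cortices, although each cortex lay below the oocytes of its own female (log2 change -0.78 ± 0.48). mrpl44.S, a protein with a ribonuclease III fold, had a log2 change of -0.51 ± 0.37, and mrpl24.L, another bacterial counterpart at the tunnel, of -0.29 ± 0.35. Neither had overlap of the groups, for mrpl24.L by a narrow margin (1952 in the higher cortex, 1989 in the lower whole oocyte array).

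The stalk of the large subunit draws in translation factors, and it has 2 genes on the array. mrpl12.L, the counterpart of the bacterial stalk protein L7/L12, had signals of 2363 and 1602 in cortices and of 3010 and 2807 in whole oocytes. Both cortices lay below both oocytes (log2 change -0.57 ± 0.36, limma adjusted p = 0.537). mrpl11.S, at the base of the stalk, is read by 3 probe sets. The tested ones had estimates on either side of 0, and whether they differ was not tested. The first, whose identifier ends in _a_at, had signals of 917 and 1694 in cortices and of 851 and 1348 in whole oocytes, and it was the 1 tested probe set that was higher in the cortex of both females (log2 change 0.22 ± 0.45). The second, which ends in _x_at, had a log2 change of -0.12 ± 0.35 with overlapping groups. Both can hybridize to several transcripts, as their endings show. The third was the 1 member under the signal limit and was not tested, with 175 and 161 in cortices and 244 and 246 in whole oocytes.

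Of 3 counterparts of bacterial proteins near the catalytic centre, mrpl16.S and mrpl3.S had values near 0 and mrpl2.L a lower one. mrpl16.S had signals of 5460 and 5617 in cortices and of 5907 and 5703 in whole oocytes. Its replicates agreed closely and the groups did not overlap, yet the difference was small (log2 change -0.07 ± 0.31, 95% interval from -0.77 to 0.64). The interval is wide because limma draws each error towards that of other probe sets of like signal. mrpl3.S had a log2 change of -0.14 ± 0.36, with the 2 females opposite. mrpl2.L had one of -0.62 ± 0.40, without overlap of the groups by a narrow margin (1366 in the higher cortex, 1420 in the lower whole oocyte array). mrpl9.S, a further bacterial counterpart, had 3572 and 3022 in cortices and 4738 and 4121 in whole oocytes, with nearly the same change in both females (-0.41 and -0.45; log2 change -0.43 ± 0.33).

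The highest value of the large subunit rested on 1 cortex array. mrpl53.L, a mitochondria-specific protein gene, had signals of 1067 and 2300 in cortices and of 1203 and 1445 in whole oocytes. The cortex arrays lay on either side of the oocyte arrays, and the log2 change of 0.25 ± 0.45 was 0.66 in the second female and -0.17 in the first. mrpl51.L had 905 and 1971 in cortices and 1137 and 1730 in whole oocytes, again with the cortices outside the oocytes on both sides (log2 change -0.07 ± 0.47). For the others, mrpl21.L, mrpl28.L, mrpl37.L, mrpl39.L, mrpl41.L, mrpl41.S and mrpl43.L, log2 changes ran from -0.46 to -0.12.

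**Figure D2:**
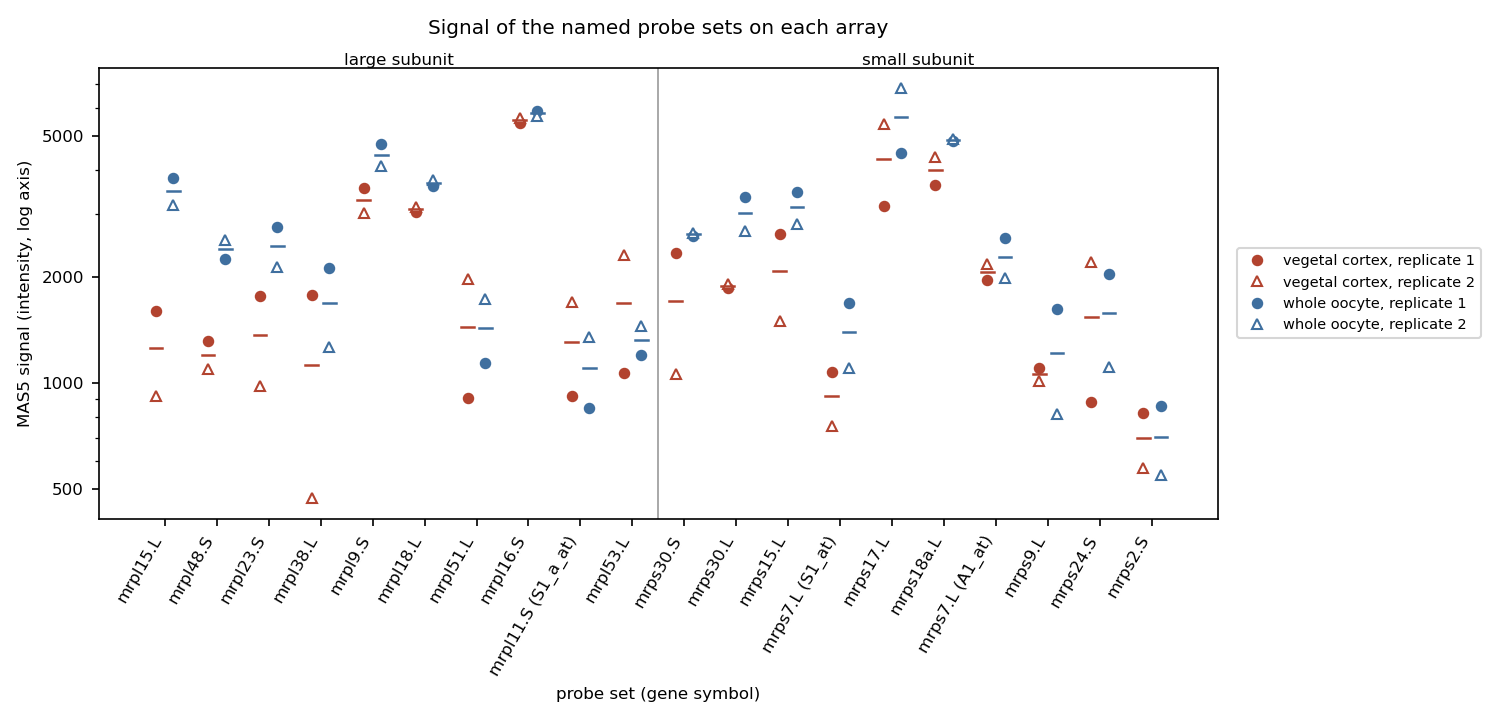
MAS5 signal on each array (y axis, log scale) for the 20 named probe sets, large subunit left and small subunit right, each ordered by its log2 change. Red points are vegetal cortices, blue points whole oocytes, filled circles the first female, open triangles the second, and short lines the group means. Red and blue separate for mrpl15.L, mrpl48.S and mrpl23.S and cross for mrps24.S, mrpl53.L and mrpl51.L.

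The small subunit binds the message and checks the codon. Its 16 tested probe sets had a median log2 change of -0.31, with 15 below 0, beside 65.7% of all tested probe sets. Both cortex arrays lay below both whole oocyte arrays in 8, or 50%, beside 31.8% of all tested probe sets, and 0 were lower at an unadjusted p under 0.05, beside 4.62%. The lowest values were those of mrps30, whose product sits in the large subunit of the mammalian mitochondrial ribosome in spite of its name. mrps30.S had signals of 2340 and 1061 in cortices and of 2608 and 2658 in whole oocytes. The oocyte arrays were nearly equal and the cortices were more than 2-fold apart, so that its log2 change of -0.73 ± 0.44 was -0.15 in the first female and -1.31 in the second. The log2 change was -1.30 without vegetal cortex replicate 1 and -0.17 without vegetal cortex replicate 2. The other homeolog, mrps30.L, had 1855 and 1902 in cortices and 3358 and 2691 in whole oocytes, with close cortices below both oocytes (log2 change -0.67 ± 0.35, limma adjusted p = 0.468). mrps18a.L, which also belongs to the large subunit in mammals, had 3639 and 4363 in cortices and 4831 and 4914 in whole oocytes, without overlap (log2 change -0.29 ± 0.32).

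Among counterparts of bacterial small subunit proteins, mrps15.L had signals of 2648 and 1502 in cortices and of 3467 and 2814 in whole oocytes. The groups did not overlap, by a narrow margin, and the log2 change of -0.64 ± 0.40 was -1.05 without vegetal cortex replicate 1 and -0.24 without vegetal cortex replicate 2. mrps17.L had 3171 and 5418 in cortices and 4491 and 6826 in whole oocytes. The females differed more than the groups did, and each cortex lay below the oocytes of its own female (log2 change -0.42 ± 0.39). The log2 change ran from -0.80 without vegetal cortex replicate 2 to -0.031 without vegetal cortex replicate 1. mrps7.L is read by a pair of probe sets that gave different values. The first, whose identifier ends in S1_at, had 1077 and 757 in cortices and 1680 and 1104 in whole oocytes, also without overlap by a narrow margin (log2 change -0.58 ± 0.41). The second, which ends in A1_at, had 1959 and 2171 in cortices and 2576 and 1984 in whole oocytes, with overlap (log2 change -0.13 ± 0.35), and whether these values differ was not tested.

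mrps24.S, the counterpart of bacterial S3 at the entry of the message, had the widest gap between the females among the members. Its signals were 880 and 2201 in cortices and 2036 and 1111 in whole oocytes. The cortex was lower in the first female (-1.19) and higher in the second (0.97), and the log2 change was -0.11 ± 0.52. mrps9.L had 1103 and 1012 in cortices and 1619 and 818 in whole oocytes, with the whole oocytes on both sides of the cortices (log2 change -0.12 ± 0.43). mrps2.S had 821 and 574 in cortices and 858 and 548 in whole oocytes, which overlapped almost fully (log2 change 0.00 ± 0.44). mrps11.L had a log2 change of -0.18 ± 0.50. All 5 mitochondria-specific small subunit genes on the array, mrps25.S, mrps26.L, mrps33.L, mrps34.S and mrps35.L, had values below 0, from -0.56 to -0.14. In 3 of them both cortices lay below both oocytes. Among all tested probe sets, 65.7% were below 0, and both cortices lay below both oocytes in 31.8%.

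The medians of the subunits were -0.38 for the large and -0.31 for the small, a difference of -0.07 on the log2 scale, which was not tested. The order depended on the setting: the difference was 0.20 with a higher signal limit and 0.15 without whole oocyte replicate 2. By female, the large subunit had medians of -0.42 and -0.43 and the small subunit of -0.46 and -0.26. With mrps18a and mrps30 moved to the large subunit the medians were -0.42 for the large and -0.25 for the small. Across both subunits, the 16 tested mitochondria-specific probe sets had a median of -0.39 and the 21 with a bacterial counterpart one of -0.29. The other 3, mrps30.L, mrps30.S and mrps18a.L, were put in neither class and had a median of -0.67. Whether the classes differ was not tested. Copies ending in .S (14 tested) had a median of -0.44 and copies ending in .L (26 tested) one of -0.31. Both homeologs were tested for 2 genes, mrpl41 and mrps30. mrpl41.L had signals of 1639 and 2451 in cortices and of 2663 and 1790 in whole oocytes (log2 change -0.12 ± 0.39). mrpl41.S had 1174 and 1342 in cortices and 2032 and 1473 in whole oocytes (-0.46 ± 0.37). Of this pair only mrpl41.S was lower without overlap. Both copies of mrps30 were lower without overlap, with log2 changes of -0.67 ± 0.35 for mrps30.L and -0.73 ± 0.44 for mrps30.S. Differences between copies were not tested, and signals of such similar genes may mix.

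The members' changes in the 2 females were nearly uncorrelated. Over the 40 tested probe sets the log2 changes of both females correlated at r = 0.05, beside 0.55 over all tested probe sets. Both are descriptions across probe sets that share the same arrays, and they cover unlike spans. Log2 changes ran from -1.51 to 0.25 among the members and from -2.96 to 5.47 among all tested probe sets. A narrower span by itself lowers a correlation, so the values do not compare how well the females agree. The median change was -0.44 in the first female and -0.33 in the second. The median gap between replicates was 0.42 for cortices and 0.33 for whole oocytes, on the log2 scale, beside a median change of -0.33.

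**Figure D3:**
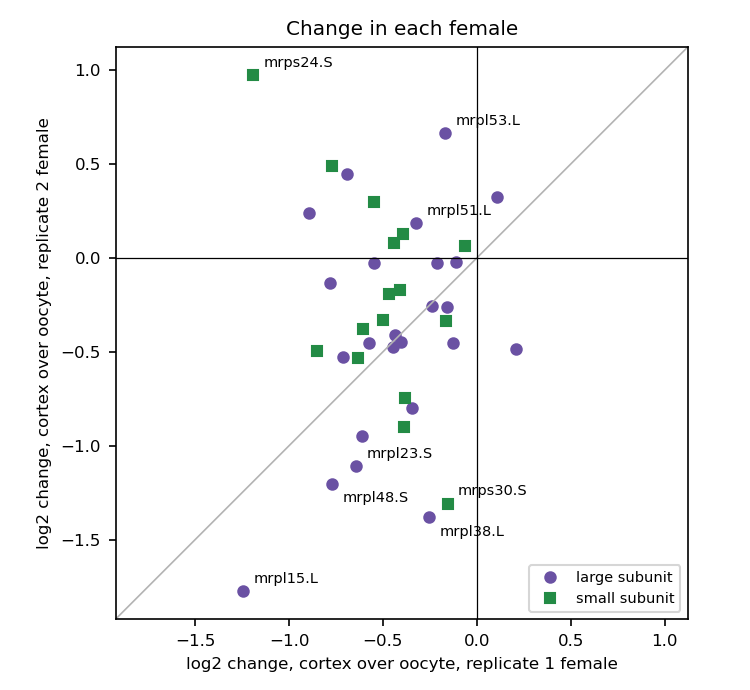
Log2 change, vegetal cortex over whole oocyte, in the first female (x axis) and the second (y axis), for 24 large subunit (circles) and 16 small subunit (squares) probe sets. The grey line marks equal change. 28 points lie below 0 on both axes, mrpl15.L lies lowest on both, and mrps24.S is opposite in the 2 females.

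Other genes of mitochondrial protein synthesis were measured beside the members, from lists chosen for their function. ptcd3.L, a protein of the mitochondrial small subunit with another kind of name, had signals of 726 and 476 in cortices and of 1422 and 777 in whole oocytes (log2 change -0.82 ± 0.46), without overlap. Of 11 tested probe sets for aminoacyl-tRNA synthetases and amidotransferase subunits of mitochondria, 10 were below 0, beside 65.7% of all tested probe sets. Their median log2 change was -0.46, and 0 passed. In this list gars1 and kars1, which account for most of the tested probe sets, also serve the cytoplasm. hars2.L, the histidyl enzyme, had 2811 and 1157 in cortices and 4065 and 3807 in whole oocytes (-1.12 ± 0.46, limma adjusted p = 0.375). A list for translation factors also held lrpprc.L and pdf.S, which are not such factors. Of its 4 tested genes 3 were below 0, beside 65.7% of all tested probe sets, and 0 passed. mtif3.L had a log2 change of -0.65 ± 0.41, lrpprc.L of -0.79 ± 0.80 and tsfm.L of 0.33 ± 0.45. The lowest was pdf.S, which removes the formyl group from new mitochondrial proteins, with 2064 and 313 in cortices and 3940 and 4205 in whole oocytes (-2.30 ± 0.74, limma adjusted p = 0.221). Both its cortices were lower, by very different amounts. Without vegetal cortex replicate 1, the log2 change was -3.62 for pdf.S and -1.75 for hars2.L. Without vegetal cortex replicate 2, it was -0.97 for pdf.S and -0.48 for hars2.L.

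A list for assembly of the mitochondrial ribosome and modification of its RNA had a median log2 change of -0.21 over 11 tested probe sets. The list also held clpp.L, clpx.L and afg3l2.L, which are genes of mitochondrial proteases. Of the 11, 8 were below 0, beside 65.7% of all tested probe sets, and 0 were called. mtg2.L, a GTPase of large subunit assembly, had signals of 1816 and 427 in cortices and of 3089 and 2051 in whole oocytes (-1.49 ± 0.63, limma adjusted p = 0.386). The log2 change was -2.51 without vegetal cortex replicate 1 and -0.47 without vegetal cortex replicate 2. clpx.L stood highest on the list, with 387 and 1310 in cortices and 310 and 267 in whole oocytes (1.26 ± 0.60, limma adjusted p = 0.434). Its log2 change was 0.30 in the first female and 2.22 in the second. Both cortices lay above both oocytes in 2 of the 11, clpx.L and afg3l2.L, and below in 4, beside 14.7% and 31.8% of all tested probe sets. Genes of mitochondrial DNA expression and upkeep also had a median of -0.21 over 14 tested probe sets. Their list also held transcription factor genes such as nrf1.S, gabpa.S and yy1.L. In this list 10 were below 0, beside the same 65.7%, and 0 were called. nrf1.S, which encodes a transcription factor known in mammals to act on nuclear genes for mitochondria, had the highest value among them. It had 11045 and 3556 in cortices and 1218 and 1377 in whole oocytes, higher in both females (log2 change 2.26 ± 0.52), and missed the threshold (limma adjusted p = 0.0663). Its log2 change was 1.44 without vegetal cortex replicate 1 and 3.07 without vegetal cortex replicate 2. tfam.L, which packages mitochondrial DNA, had 2541 and 4679 in cortices and 2728 and 4344 in whole oocytes, with full overlap (0.00 ± 0.42).

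Nuclear genes of the respiratory chain encode products that assemble with those the mitochondrial ribosome makes. Their median log2 change was -0.45 over 70 tested probe sets, with 62 below 0, beside 65.7% of all tested probe sets. Both cortices lay below both oocytes in 34 (48.6%), beside 31.8% of all tested probe sets. Cytosolic ribosomal protein genes had a median of -0.20 over 78 tested probe sets, with 65 below 0. Both cortices lay below both oocytes in 22 of them (28.2%), under the 31.8% of all tested probe sets. Neither list had a called member. The members, at -0.33, lay between these lists, and whether the lists differ was not tested. All these comparisons share the same 4 arrays.

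**Figure D4:**
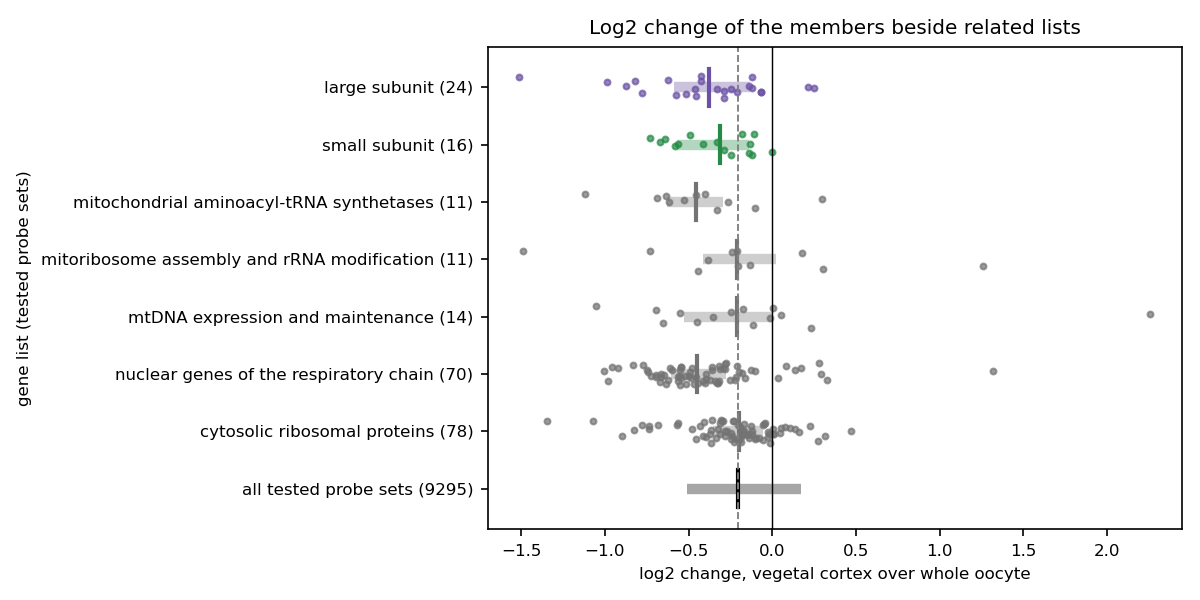
Log2 change, vegetal cortex over whole oocyte (x axis), of tested probe sets in each list, with the number tested in brackets. Points are probe sets, thick bars the span between the quartiles, upright ticks the medians, and the dashed line the median of all tested probe sets. The medians of both subunits, -0.38 and -0.31, lie between those of the respiratory chain (-0.45) and of the cytosolic ribosomal proteins (-0.20).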

How the data were processed

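RNA from vegetal cortices and whole oocytes was amplified in a two-cycle cDNA synthesis and hybridized to 1-colour Affymetrix arrays, per the labels' protocols. The deposited values are intensity values from MAS5, which the submitters' processing notes name as the authors' tool, 1 signal for each probe set on each array. Which MAS5 version and settings were used is not given in the sources used here. Detection calls were not used here. Dim signals are noisy, and amplification favours the 3' ends of transcripts. Symbols came from the platform annotation; all 38 member gene identifiers were found in the RefSeq gene table and 0 symbols changed.

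To each signal 19.1 was added ahead of the log2, which is the 10th percentile over non-control probe sets and makes the changes of dim ones too small. Testing was limited to the 9295 probe sets whose signal averaged 271.5 (the 40th percentile) or more. The groups were compared with limma 3.58.1 in R 4.3.3, using lmFit and then eBayes with a trend on intensity (residual degrees of freedom 2, prior 6.22), two-sided, with the Benjamini-Hochberg adjustment running over every tested probe set. The error given with a log2 change is its SE from limma. The steps were run on simulated data whose changes were 2-fold or more, larger than those of nearly all members. That run does not show whether changes of the members' size would be found. The number of arrays limits the precision.

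Groups and replicate numbers came from the titles, since the description of vegetal cortex replicate 2 repeats that of replicate 1. Replicate numbers pair the samples, as each stands for 1 donor female, and deviations of same-numbered arrays correlated at 0.35; the main fit has no block. The members and lists were chosen with earlier results of these data known. Named with all their signals are, in each subunit, the 4 lowest and 4 highest log2 changes, the 3 brightest and any at an unadjusted p under 0.05; other members were named by their function. Alternatives changed the offset, the signal limit, the normalization, the trend, the block and the arrays used.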

Additional observations from a re-analysis of the deposited data

How the results depend on the processing

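With 2 arrays a group, limma has few degrees of freedom, and no member was called in the fit of all 4 arrays or in any of the 7 other settings that used them all. With the replicate number as a block, 0 members were called lower and 0 higher, as without it, beside 0 and 355 of the 9295 tested probe sets. At an unadjusted limma p under 0.05, 4 members were lower (mrpl15.L, mrpl48.S, mrpl23.S and mrpl45.L), and mrpl15.L had an adjusted p = 0.061. The share of all tested probe sets at that unadjusted p was not taken with the block, so the 4 are not read as a result about the members. The number of members below 0 was 29 of 31 with the higher signal limit and 38 of 41 with none. Quantile normalization left 15 of the 40 tested members (37.5%) lower without overlap, beside 28.6% of all tested probe sets, and called 1 probe set lower among all tested.

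Leaving out 1 array at a time gave 0 to 4 members called lower and 0 called higher, 31 to 38 below 0, a median log2 change of the members from -0.45 to -0.26, and 0 to 673 probe sets called lower and 125 to 697 higher among all tested. The members called lower (mrpl15.L, mrpl38.L, mrps30.S and mrpl23.S) were all called without vegetal cortex replicate 1. The upper end of the range for all tested probe sets called lower came from that same fit. There the lone cortex array is assumed to vary like the whole oocytes, so these calls are not read as a result about the members. The members' median was -0.42 with the signal limit at the 60th percentile, and the large minus small difference was 0.20 there and ran from -0.071 to 0.15 with 1 array left out. Values near 0 changed sign: mrpl51.L was at 0.047 with quantile normalization, and mrps2.S at -6.5e-05 with the offset at the 25th percentile. With 1 array left out, the log2 change ran from -1.75 to 0.12 for mrpl38.L, from -0.30 to 0.79 for mrpl53.L, from -0.22 to 0.65 for mrpl11.S (the probe set ending in _a_at), from -0.62 to 0.48 for mrpl51.L, from -0.31 to 0.32 for mrps2.S, from -0.76 to 0.54 for mrps24.S, from -0.61 to 0.36 for mrps9.L and from -0.32 to 0.055 for mrps7.L (the probe set ending in A1_at). Among other members described with all their signals, it ran from -1.29 to -0.46 for mrpl23.S, from -1.30 to -0.17 for mrps30.S, from -1.05 to -0.24 for mrps15.L, from -0.80 to -0.031 for mrps17.L, from -0.88 to -0.28 for mrps7.L (the probe set ending in S1_at), from -0.42 to -0.16 for mrps18a.L, from -1.28 to -0.28 for mrpl45.L, from -0.85 to -0.30 for mrpl12.L, from -0.69 to -0.23 for mrpl41.S, from -0.41 to 0.17 for mrpl41.L and from -0.093 to -0.042 for mrpl16.S. The causes were not tested.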
